A study of Arabidopsis thaliana with 24 samples.

Results

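The light response of bzip1-1 seedlings without nitrogen was measured as the difference between 3 ATH1 arrays of bzip1-1 under -N+L and 3 arrays of bzip1-1 under -N-L, chosen by their titles from the 24 arrays of the series. The series crossed 2 genotypes with light and nitrogen in 8 groups of 3 arrays each. bzip1-1 is a single homozygous line of Arabidopsis thaliana with a T-DNA insertion in the only exon of bZIP1, and WT-sib is a sibling that lost the insertion in a backcross. All plants were 14 days old and had grown in long days on 0.5 mM KNO3 with 3 mM sucrose. Whole seedlings were then treated for 2 h, in the growth chamber (+L) or under aluminium foil (-L), on plates that held 20 mM KNO3 with 20 mM NH4NO3 (+N) or KCl in place of the nitrogen salts (-N). The groups set against bzip1-1 -N+L and bzip1-1 -N-L were bzip1-1 +N+L and +N-L, and WT-sib -N+L and -N-L. The 3 arrays of a group came from independent experiments. RNA was taken from whole seedlings, in which fewer cells of a type and less RNA per cell cannot be told apart.

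bZIP1 is a basic-leucine zipper transcription factor of group S1, a small group whose members pair with group C bZIPs. These factors are known for their part in the response to low sugar and low energy, in which the kinase SnRK1 acts upstream of them and genes such as ASN1, ProDH and the dark-inducible (DIN) genes are raised. Light is known in seedlings for the opposite setting: photoreceptors release transcription factors such as HY5 from degradation, flavonoid synthesis is turned on, photosynthesis supplies sugar, and genes of carbon and amino acid salvage are turned down. The comparison asks what is left of this light response when nitrogen is withheld and bZIP1 is disrupted.

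Before any result, the arrays labelled -N+L number 1 need a description. The probe set with the lowest genotype difference over all arrays, which has no gene name in the tables used here, read 471, 73.6 and 68.6 on the bzip1-1 -N+L arrays numbered 1, 2 and 3, against 56.5, 519 and 2297 on the WT-sib -N+L arrays. AT3G56290, annotated as an unknown protein, read 1806, 11650 and 6747 on the bzip1-1 -N+L arrays and 7861, 2139 and 2231 on the WT-sib -N+L arrays. In both probe sets the array labelled bzip1-1 -N+L number 1 lay on the WT-sib side of its own group, and the array labelled WT-sib -N+L number 1 lay on the bzip1-1 side of its own. In the other 3 conditions the arrays of the 2 genotypes did not overlap in either of these probe sets. In the chloroplast gene psbB, with 2987, 4787 and 3843 in bzip1-1 -N+L and 4546, 7003 and 9482 in WT-sib -N+L, number 1 was the lowest array of both groups. The probe set of bZIP1 itself is among those without a gene name, so the insertion was not checked on these arrays. The labels were kept. The light response and its differences from WT-sib and from the response with nitrogen were computed again without the array labelled bzip1-1 -N+L number 1. Calls of the genes described that changed are given beside them. The comparisons of calls between responses, with their medians and correlations, used all arrays only. 

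Light changed 1877 of the 22746 probe sets in bzip1-1 without nitrogen (8.25%), of which 913 were higher (4.01%) and 964 were lower (4.24%) in -N+L than in -N-L at an adjusted p under 0.05 (limma on log2 signal with Benjamini-Hochberg adjustment). The signal is the MAS 5.0 value, a linear brightness scaled to the same trimmed mean on every array, and a log2 change of 1 is 2 times the dark signal. The median change was 1.26 among the higher probe sets and -1.19 among the lower, against 0.05 over all probe sets, and the smallest called change was 0.40 in size. At least 2 on the log2 scale separated light and dark in 207 of the higher and 217 of the lower probe sets, and at least 4 in 25 and 27. The 3 light arrays lay all above or all below the 3 dark arrays in 1861 of the 1877, and in 25.5% of all probe sets.

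The 1877 probe sets were called on these same 6 arrays, so their values in the single experiments are a description. Taking each -N+L array minus the -N-L array of the same number, the median change of the higher probe sets was 1.17, 1.42 and 1.16 for numbers 1, 2 and 3, and that of the lower probe sets was -1.27, -1.31 and -1.04. With the replicate number as a block 3234 probe sets were called (14.2%), including all 1877. Without the array labelled bzip1-1 -N+L number 1 the count was 1248 (5.49%), 564 higher and 684 lower, and 1198 of these were among the 1877. Leaving out -N+L number 2 gave 1170 and leaving out -N-L number 2 gave 1145, so that this array was not alone in moving the count by over 1.5 times. No called probe set changed sign in any of these settings.

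**Figure D1:**
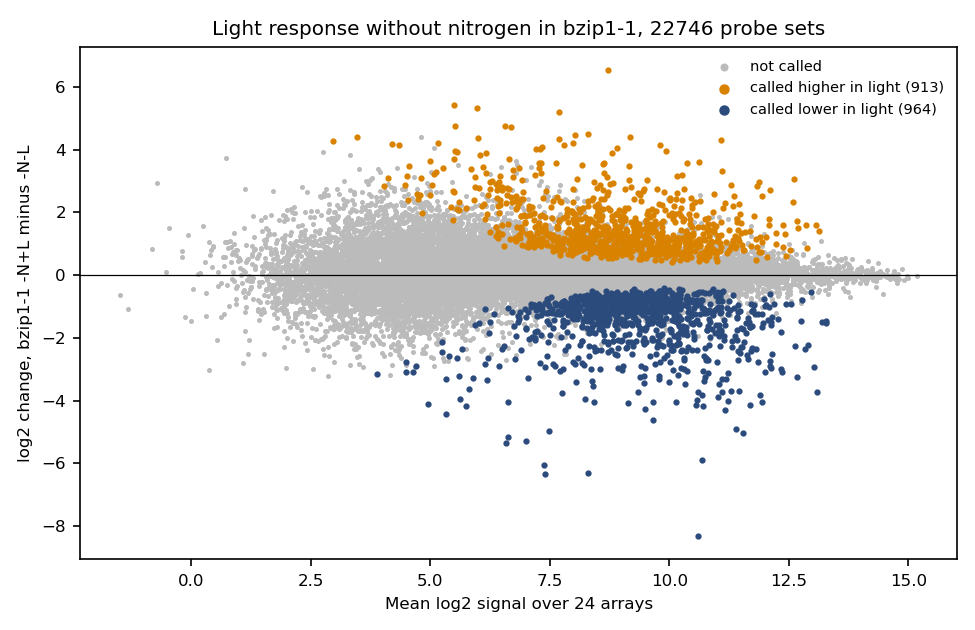
Light response of each of the 22746 probe sets in bzip1-1 without nitrogen. The x axis is the mean log2 signal over the 24 arrays, the y axis the log2 change of bzip1-1 -N+L minus -N-L from 3 arrays each. Orange points were called higher in light (913), blue points lower in light (964) and grey points were not called. Called changes of 4 or more in size on the log2 scale number 25 above and 27 below 0.

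The gene that fell furthest was BT2, a BTB and TAZ domain protein known as a target of sugar, nitrogen and light signals. Its signal was 153, 6.65 and 15.7 in bzip1-1 -N+L, against 7235, 9488 and 7524 in bzip1-1 -N-L, a log2 change of -8.32 (SE 0.80, adjusted p = 1.77e-06). The 3 dark arrays were tight and high, while 2 of the 3 light arrays were at the bottom of the array's range, where MAS 5.0 values are loose. With 32 added to each signal before taking log2 the change was -6.85. The array labelled -N+L number 1 was the highest of the light arrays, and without it the change was -9.62 (adjusted p = 7.0e-08). In WT-sib -N+L, with 12.2, 85.4 and 91.9, number 1 was the lowest array, so that in BT2 too the 2 arrays labelled number 1 lay on the side of the other genotype. Whether these 2 arrays were exchanged was not tested.

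BT5, of the same BTB and TAZ family and named here after its values were seen, fell too, with 406, 357 and 534 in bzip1-1 -N+L, against 6560, 7766 and 6451 in bzip1-1 -N-L (log2 -4.02, SE 0.49, adjusted p = 2.16e-05). GAT1_2.1, annotated as glutamine amidotransferase-related, read 9.38, 11.8 and 11.1 in -N+L, against 706, 381 and 2257 in -N-L (log2 -6.31, SE 0.73, adjusted p = 1.13e-05). Its light values were tight and close to the floor, whereas its dark values spread widely. HSPRO2, the Arabidopsis relative of a nematode resistance gene of sugar beet, read 403, 590 and 606 in -N+L and 8155, 9932 and 9896 in -N-L (log2 -4.15, SE 0.43, adjusted p = 3.27e-06). AT1G80440, a Kelch repeat F-box protein known for marking phenylalanine ammonia-lyase for degradation, had 457, 767 and 898 in -N+L and 12647, 10386 and 10641 in -N-L (log2 -4.04, SE 0.43, adjusted p = 4.28e-06). Its dark signal was among the brightest of the genes that fell, and light and dark arrays stood far apart.

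SIS, the salt-induced serine rich gene, fell to 134, 199 and 94.2 in bzip1-1 -N+L, against 3735, 3611 and 2706 in -N-L (log2 -4.61, SE 0.32, adjusted p = 3.59e-08). GDPD2, a glycerophosphodiester phosphodiesterase, which releases glycerol phosphate from deacylated phospholipids, fell to 124, 126 and 74.3 in -N+L, against 2276, 2137 and 1158 in -N-L (log2 -4.08, SE 0.45). The other 6 of the 12 lowest genes carry only a locus name or "unknown protein" in the tables used here. AT5G19120 was the tightest of them, at 389, 326 and 353 in -N+L and 11880, 10597 and 9356 in -N-L (log2 -4.89, SE 0.34, adjusted p = 3.59e-08). AT2G20670 read 138, 80.2 and 196 in -N+L and 9095, 8803 and 5821 in -N-L (log2 -5.91, SE 0.52). AT3G62950, AT1G33055, AT1G54740 and AT3G62550 had log2 changes of -6.33, -4.99, -4.04 and -4.03. All 12 lowest genes were called without the array labelled -N+L number 1 and with the replicate block, and 8 of them had at least 1 array under a signal of 123, the level below which the 40% dimmest probe sets lie.

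**Figure D2:**
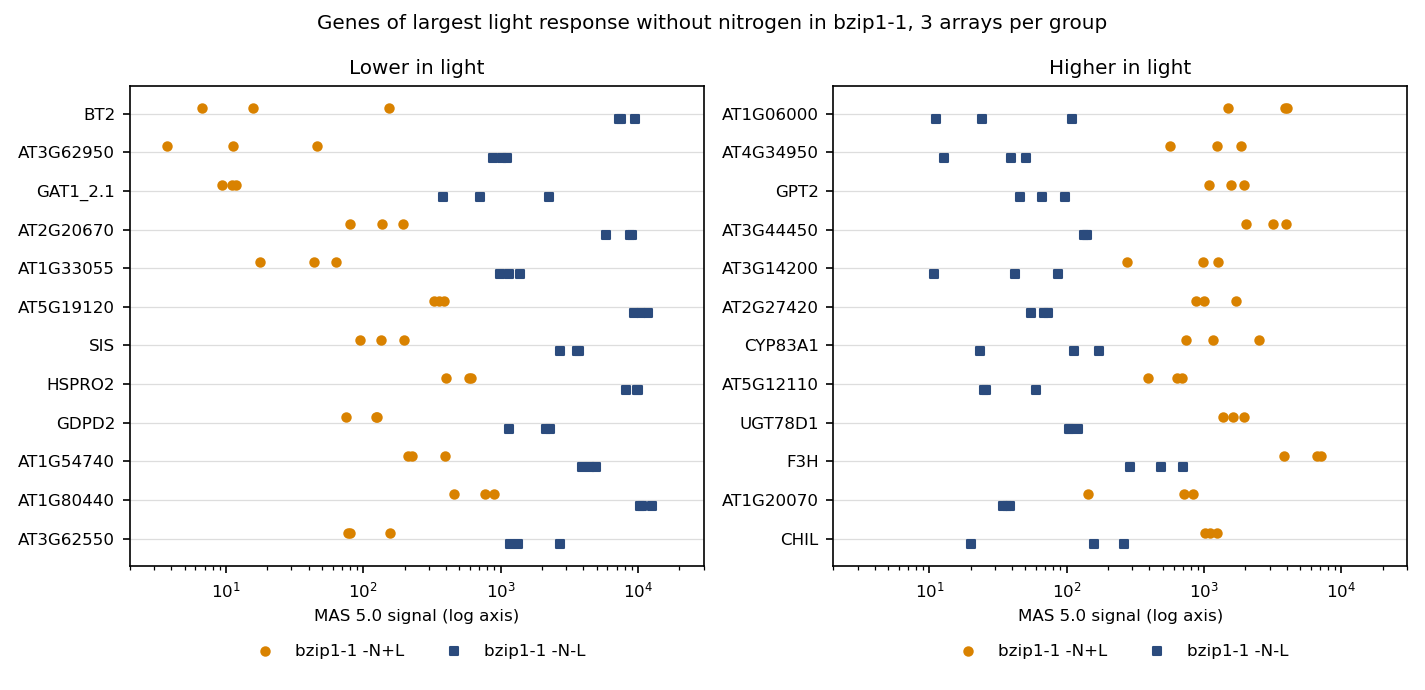
MAS 5.0 signal (log axis) of the 12 genes with the largest fall (left panel) and the 12 with the largest rise (right panel) in light among named, not dim probe sets of bzip1-1 without nitrogen. Orange circles are the 3 bzip1-1 -N+L arrays and blue squares the 3 bzip1-1 -N-L arrays. Genes were picked only where circles and squares do not overlap, which holds in 25.5% of all probe sets.

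Flavonoid genes stood among the highest. UGT78D1, which adds rhamnose to flavonols, read 1626, 1966 and 1378 in bzip1-1 -N+L, against 105, 104 and 121 in bzip1-1 -N-L (log2 3.90, SE 0.27, adjusted p = 3.59e-08), with light and dark arrays both tight. F3H, the flavanone hydroxylase that leads towards flavonols and anthocyanins, read 6622, 7151 and 3802 in -N+L and 698, 483 and 288 in -N-L (log2 3.62, SE 0.42, adjusted p = 1.09e-05). CHIL, of the chalcone isomerase family, read 1111, 1232 and 1011 in -N+L and 262, 157 and 20.2 in -N-L (log2 3.57, SE 0.71, adjusted p = 0.00248). The dark arrays of CHIL spread more widely than those of UGT78D1 and F3H.

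The largest rise was that of AT1G06000, which has no role in the tables used here and read 4031, 3892 and 1490 in bzip1-1 -N+L, against 110, 11.1 and 24 in -N-L (log2 6.54, SE 1.08, adjusted p = 0.000481). Its dark values were dim and spread more widely than its light values. With 32 added before log2 the change was 5.37. GPT2, the plastid translocator that exchanges glucose 6-phosphate for phosphate and is known to be raised by sugar, read 1565, 1966 and 1088 in -N+L and 65.5, 97.0 and 45.6 in -N-L (log2 4.50, SE 0.81, adjusted p = 0.00107). AT4G34950, annotated as a nodulin family protein, read 1841, 1240 and 565 in -N+L and 39.3, 50.1 and 12.9 in -N-L (log2 5.21, SE 0.95, adjusted p = 0.00125).

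CYP83A1, a cytochrome P450 of aliphatic glucosinolate synthesis, read 2497, 1167 and 739 in bzip1-1 -N+L and 113, 173 and 23.4 in -N-L (log2 4.07, SE 0.95, adjusted p = 0.00883). The array labelled -N+L number 1 was its highest, and without it the adjusted p was 0.0545, while without -N-L number 3 it was 0.0631. AT1G20070 read 830, 709 and 144 in -N+L and 38.8, 34.6 and 36.9 in -N-L (log2 3.58, SE 0.88, adjusted p = 0.0125). Its light array number 3 lay well below numbers 1 and 2, and its call was lost without -N+L number 1 (adjusted p = 0.0716) and without -N+L number 2 (0.0672). AT3G44450, annotated as an unknown protein, had dark arrays close together, with 3200, 3965 and 2004 in -N+L and 140, 133 and 139 in -N-L (log2 4.42, SE 0.41, adjusted p = 1.54e-06). AT3G14200, AT2G27420 and AT5G12110 rose by 4.35, 4.14 and 4.03 on the log2 scale, and 10 of the 12 highest genes had an array under a signal of 123.

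The list counts that follow cover genes whose names come from the platform's annotation. Further members could be named only through the study's own table of genes regulated on these arrays. Those members are given by value and kept out of the counted genes. Where a number of them called is given, it is a description only. A table of regulated genes on the same arrays is no independent evidence of their direction. Between 1 and 10 members of each counted list other than the chloroplast genes were at hand, so the shares are coarse, and the lists were not tested as sets.

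Several genes that cells are known to raise in the dark or on low sugar fell in light. Of the 2 counted dark-inducible and starvation genes 1 fell and none rose, with 4.24% of all probe sets called lower. That gene was AKINBETA1, a regulatory beta subunit of SnRK1, which read 352, 422 and 442 in bzip1-1 -N+L, against 4073, 4813 and 4532 in -N-L (log2 -3.47, SE 0.35, adjusted p = 2.52e-06). SAG101, the other, read 424, 271 and 708 in -N+L and 202, 641 and 737 in -N-L (log2 -0.08, SE 0.54). Among 8 members named only from the study's table of regulated genes, 6 fell, a number that is no evidence about the list. ASN1 (DIN6), which makes asparagine from glutamine, read 766, 1636 and 742 in -N+L and 12942, 15803 and 13194 in -N-L (log2 -3.83, SE 0.51, adjusted p = 5.44e-05). SEN1 (DIN1), a senescence-associated gene, read 1225, 3847 and 2553 in -N+L and 17934, 25259 and 22638 in -N-L (log2 -3.25, SE 0.60, adjusted p = 0.00148), one of the brightest signals of the group. The -N+L number 1 array was the lowest of the light arrays of SEN1, and the call held without it (adjusted p = 0.0142).

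The branched-chain amino acids are known to be burned for energy when sugar is short, and several enzymes of that route fell. BCE2 (DIN3) and DIN4, both named from the study's table, are subunits of the branched-chain keto acid dehydrogenase of mitochondria. BCE2 read 350, 332 and 426 in bzip1-1 -N+L and 3227, 2340 and 3415 in -N-L (log2 -3.01, SE 0.37, adjusted p = 2e-05), and DIN4 fell by 2.53 on the log2 scale (SE 0.43). The next enzyme, IVD (isovaleryl-CoA dehydrogenase), read 409, 777 and 1046 in -N+L and 3082, 4513 and 5199 in -N-L (log2 -2.59, SE 0.39, adjusted p = 0.00021). MCCA, the biotin-bearing subunit of methylcrotonyl-CoA carboxylase, read 326, 576 and 703 in -N+L and 3977, 5285 and 5480 in -N-L (log2 -3.25, SE 0.57, adjusted p = 0.000905). Number 1 was the lowest array of both groups in IVD and in MCCA.

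Its partner subunit MCCB had 607, 488 and 1409 in bzip1-1 -N+L and 1761, 2085 and 6463 in -N-L, a log2 difference of -1.94 (SE 0.73) that did not pass (adjusted p = 0.124) unless the replicate number was a block (adjusted p = 4.1e-05). Number 3 was its highest array in light and in dark. AT4G33150, the lysine-ketoglutarate reductase and saccharopine dehydrogenase locus of lysine breakdown, behaved alike, with 277, 359 and 1042 in -N+L and 767, 757 and 2466 in -N-L (log2 -1.26, adjusted p = 0.227, and 0.0143 with the block). Over the amino acid breakdown list 2 of 6 counted genes fell and none rose, against 4.24% of all probe sets called lower, with a median log2 difference of -1.60 against 0.05 over all probe sets. With the block, which called 14.2% of all probe sets, 4 of the 6 fell. Of members named from the study's table, ERD5, the proline dehydrogenase that group S1 bZIPs are known to act on, read 1921, 1005 and 2477 in -N+L and 9181, 9086 and 10463 in -N-L (log2 -2.50, SE 0.44, adjusted p = 0.000835). GDH2, a subunit of glutamate dehydrogenase, had a log2 change of -2.08 (SE 0.48) at an adjusted p of 0.00867, a call lost without -N+L number 2 (0.055) and without -N-L number 3 (0.0573).

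Autophagy, the recycling of cell contents in the vacuole, was measured by 10 counted genes, all with a log2 difference below 0 (median -0.21), of which 2 fell, against 4.24% of all probe sets. ATG8E, which coats the autophagosome, read 653, 1111 and 1975 in bzip1-1 -N+L and 2891, 3979 and 6987 in -N-L (log2 -1.94, SE 0.53, adjusted p = 0.0252). ATG8F, of the same ubiquitin-like family, read 2255, 2693 and 5827 in -N+L and 7036, 6954 and 11354 in -N-L (log2 -1.32, SE 0.40, adjusted p = 0.0439). Number 3 was the highest array of both genes in light and in dark. Neither call held without the array labelled -N+L number 1 (adjusted p = 0.144 and 0.207), and leaving out -N+L number 2, -N-L number 2 or -N-L number 3 also ended both (that of ATG8F ended without -N-L number 1 too), whereas with the block their adjusted p were 8.8e-06 and 3.6e-05. ATG8C, of the same family, had a log2 difference of -0.59 (adjusted p = 0.258, and 0.0118 with the block), and APG5, named from the study's table and needed to attach ATG8 to membranes, fell by 0.83 (SE 0.17, adjusted p = 0.00355).

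Sugar genes moved in both directions. STP1, the main monosaccharide importer of the plasma membrane and known to be repressed by sugar, read 2092, 2322 and 981 in bzip1-1 -N+L and 14986, 15326 and 10783 in -N-L (log2 -3.01, SE 0.29, adjusted p = 1.81e-06). STP14, of the same transporter family, read 96.9, 157 and 136 in -N+L and 944, 833 and 1360 in -N-L (log2 -3.00, SE 0.43, adjusted p = 0.000122). The genes that rose work in the plastid. GBSS1, the starch synthase that makes amylose and is known to be under clock control, read 10419, 13921 and 4999 in -N+L and 2459, 2188 and 702 in -N-L (log2 2.53, SE 0.53, adjusted p = 0.00389). APL3, a large subunit of ADP-glucose pyrophosphorylase, which feeds starch synthesis, read 309, 1007 and 454 in -N+L and 63.8, 104 and 116 in -N-L (log2 2.50, SE 0.57, adjusted p = 0.0076, but 0.0623 without -N+L number 2, its highest array). APL3 was the only one of 3 counted sugar genes to pass, against 8.25% of all probe sets. SWEET11, a sucrose exporter, had 6139, 5398 and 2789 in -N+L and 5304, 5427 and 3094 in -N-L (log2 0.02, SE 0.38).

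Trehalose 6-phosphate is a sugar signal that acts on SnRK1, and 3 genes of the class II trehalose phosphate synthase family, all named from the study's table, fell. The remaining measured member of the trehalose list, also named from that table, was not called, with a log2 difference of 0.36. TPS9 read 161, 142 and 204 in bzip1-1 -N+L and 1515, 1358 and 1866 in -N-L (log2 -3.23, SE 0.30, adjusted p = 1.54e-06). TPS10 read 272, 222 and 510 in -N+L and 1417, 1008 and 1613 in -N-L (log2 -2.07, SE 0.27, adjusted p = 3.77e-05). ATTPS6 read 248, 251 and 236 in -N+L and 652, 594 and 335 in -N-L (log2 -1.05, SE 0.28, adjusted p = 0.0209), and leaving out any array of the comparison except -N-L number 3 raised its adjusted p to between 0.0593 and 0.112. SIP2 (seed imbibition 2, annotated with raffinose synthase activity) and CDF2 (a cycling DOF factor that represses flowering) were named after their values were seen. SIP2 read 807, 468 and 315 in -N+L and 7634, 8336 and 5888 in -N-L (log2 -3.87, SE 0.46), and CDF2 read 286, 231 and 296 in -N+L and 2970, 3114 and 2525 in -N-L (log2 -3.41, SE 0.38).

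Genes of groups S1 and C, the group of bZIP1 and that of its partners, moved in both directions, and of the 2 counted ones, BZIP53 and bZIP44, 1 fell and none rose, against 4.24% of all probe sets called lower. GBF6 (bZIP11), a group S1 bZIP known for control by sucrose of its translation, read 1220, 1010 and 1496 in bzip1-1 -N+L and 210, 163 and 182 in -N-L (log2 2.74, SE 0.28, adjusted p = 2.52e-06). BZIP53, of group S1 and known to raise the proline dehydrogenase gene, read 1265, 1095 and 2105 in -N+L and 2702, 2668 and 4355 in -N-L (log2 -1.14, SE 0.33, adjusted p = 0.0326). BZIP9, of group C, read 935, 872 and 902 in -N+L and 1980, 1997 and 1568 in -N-L (log2 -1.02, SE 0.20, adjusted p = 0.00218). bZIP44, of group S1, had 500, 377 and 548 in -N+L and 440, 200 and 270 in -N-L (log2 0.71, SE 0.25, adjusted p = 0.0945, and 0.0447 with the block). So GBF6 was higher while BZIP53 and BZIP9 were lower in light. The call of BZIP53 was lost without -N+L number 1 (adjusted p = 0.119), -N+L number 2, -N-L number 2 or -N-L number 3.

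Of 3 counted genes of flavonoid and phenylpropanoid synthesis 2 rose and none fell (median log2 1.78), with 4.01% of all probe sets called higher. UGT78D2, which adds glucose to flavonols and anthocyanidins, read 3508, 2935 and 1993 in bzip1-1 -N+L and 878, 763 and 750 in -N-L (log2 1.78, SE 0.35, adjusted p = 0.00257). DFR, the dihydroflavonol reductase of the anthocyanin branch, had 391, 147 and 192 in -N+L and 108, 118 and 135 in -N-L (log2 0.90, SE 0.58, adjusted p = 0.454), with the array labelled -N+L number 1 well above the rest. TT5, the chalcone isomerase, was named from the study's table and read 2283, 2925 and 2607 in -N+L and 524, 636 and 535 in -N-L (log2 2.2, SE 0.22, adjusted p = 2.52e-06).

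Upstream of the flavonoids, PAL1, the phenylalanine ammonia-lyase that opens the phenylpropanoid route, read 6267, 5882 and 3403 in bzip1-1 -N+L and 1136, 988 and 911 in -N-L (log2 2.31, SE 0.59, adjusted p = 0.0166). Its call was lost without either -N+L number 1 (0.0704) or number 2 (0.068) and without -N-L number 2 or 3. C4H, the next enzyme, read 5135, 5161 and 5096 in -N+L and 2480, 2653 and 3118 in -N-L (log2 0.91, SE 0.22, adjusted p = 0.0135, but 0.0586 without -N-L number 1 and 0.0537 without -N-L number 2). 4CL1, which activates coumarate with coenzyme A, had 5729, 6723 and 5115 in -N+L and 2963, 2484 and 1511 in -N-L (log2 1.38, SE 0.44, adjusted p = 0.0559, and 0.00597 with the block). All light arrays of these 3 genes were above all their dark arrays, and the 2 groups did not overlap in 25.5% of all probe sets.

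GI (GIGANTEA), which acts between the clock and flowering, was the only counted clock gene and read 1279, 1508 and 714 in bzip1-1 -N+L and 106, 77.2 and 110 in -N-L (log2 3.53, SE 0.54, adjusted p = 0.000235). AT5G64170 (LNK1), a clock component known to be induced by light, was named from the study's table and read 2188, 2880 and 2278 in -N+L and 630, 698 and 652 in -N-L (log2 1.88, SE 0.15, adjusted p = 2.74e-07). ELF3, of the evening complex, read 330, 196 and 312 in -N+L and 513, 512 and 680 in -N-L (log2 -1.05, SE 0.24, adjusted p = 0.00724, but 0.062 without -N+L number 2). AT3G54500 (LNK2), the relative of LNK1, had 3213, 3522 and 1909 in -N+L and 6755, 5526 and 3253 in -N-L (log2 -0.83, SE 0.30, adjusted p = 0.105, 0.00683 with the block and 0.0311 without -N-L number 3). The clock genes thus lay on both sides of 0.

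Both photoreceptor genes that could be named from the study's table and passed were lower in light. PHYA, the far-red photoreceptor, known to be repressed by light, read 984, 1430 and 1674 in bzip1-1 -N+L and 3148, 4094 and 5042 in -N-L (log2 -1.60, SE 0.40, adjusted p = 0.014). CRY1, a blue-light receptor, read 341, 442 and 638 in -N+L and 1012, 1561 and 1395 in -N-L (log2 -1.51, SE 0.35, adjusted p = 0.00877). The array labelled -N+L number 1 was the lowest of both, and without it their adjusted p were 0.0792 and 0.0589. Both calls were also lost without -N-L number 2 (0.0505 for PHYA and 0.0522 for CRY1), and that of PHYA without -N-L number 3 (0.0642). SPA4, a partner of the light-signalling repressor COP1, had 941, 1158 and 1118 in -N+L and 926, 929 and 1033 in -N-L (log2 0.15, SE 0.20). HYH, the close relative of HY5, had 1811, 2613 and 1707 in -N+L and 1608, 1832 and 1638 in -N-L (log2 0.25, SE 0.24).

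Genes of photosynthesis itself showed few calls. Of all probe sets 8.25% were called, so lists of 3 or 4 genes without a call say little. None of the 4 counted genes of carbon fixation and photorespiration passed (median log2 -0.05, and 0.04 without the array labelled -N+L number 1). RCA, the Rubisco activase, had 22599, 30676 and 21536 in bzip1-1 -N+L and 25700, 28100 and 22088 in -N-L (log2 -0.03, SE 0.26). None of the 3 light-harvesting genes passed (median 0.03), among them LHCB4.1 with 15943, 21712 and 12337 in -N+L and 15185, 20229 and 13051 in -N-L. In these bright genes number 2 was the highest array in light and in dark, and the 2 groups overlapped. The 2 light-harvesting genes named from the study's table had log2 differences of -0.89 and 0.84. Neither passed, and 1 rose with the block. Of 8 counted genes of chlorophyll synthesis 1 fell and none rose (median -0.23), against 4.24% of all probe sets called lower. That was PORB, a light-dependent protochlorophyllide reductase, with 630, 797 and 713 in -N+L and 1666, 1960 and 1244 in -N-L (log2 -1.17, SE 0.34, adjusted p = 0.0376). Its adjusted p was 0.13 without the array labelled -N+L number 1, and between 0.0733 and 0.159 when any array of the comparison except -N-L number 3 was left out. The 69 chloroplast-encoded probe sets had log2 differences between -0.32 and 0.41 (median -0.06, and 0.15 without the array labelled -N+L number 1). None of the 69 passed, against 8.25% of all probe sets.

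**Figure D3:**
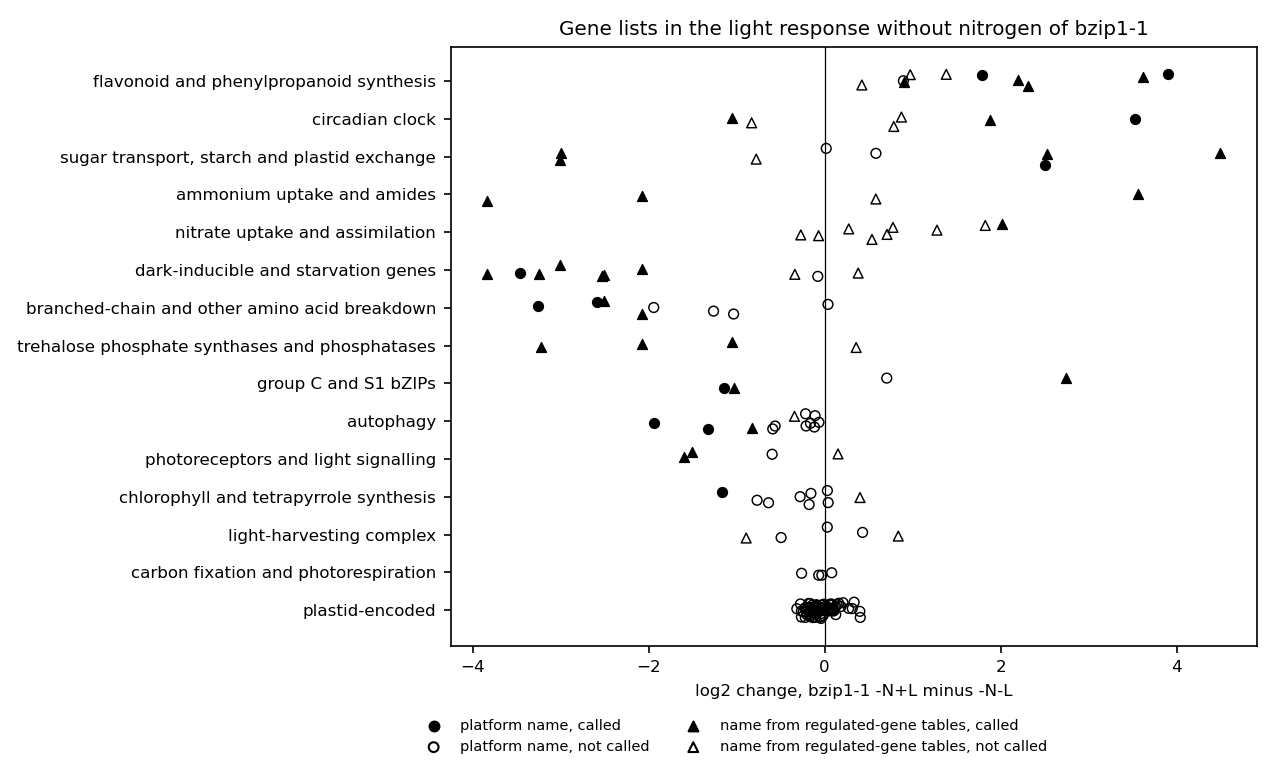
Log2 change of bzip1-1 -N+L minus -N-L (x axis, 3 arrays each) for the members of 15 gene lists (rows). Circles are genes named by the platform, triangles genes named only through the study's table of regulated genes, filled where called and open where not called. The dark-inducible and trehalose rows lie mostly left of 0, the flavonoid row right of 0 and the 69 chloroplast-encoded probe sets close to 0.

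Genes of nitrogen uptake and amides moved in both directions. All that could be named came from the study's table, so the numbers called are a description only. Of 4 genes of ammonium uptake and amides 1 rose and 2 fell, and those that fell were ASN1 and GDH2, described above. AMT1;2, an ammonium importer of roots, read 5073, 5855 and 3119 in bzip1-1 -N+L and 740, 364 and 208 in -N-L (log2 3.56, SE 0.65, adjusted p = 0.00124). Of 9 genes of nitrate uptake and assimilation, all named from the study's table, NIA1, a nitrate reductase known to be raised by light and sugar, was the only one to pass, with 1692, 1551 and 1141 in -N+L and 324, 481 and 290 in -N-L (log2 2.02, SE 0.53, adjusted p = 0.0192). Without -N+L number 1 its adjusted p was 0.0747, and leaving out -N+L number 2, -N-L number 1 or -N-L number 3 also ended the call. NIA2, the other nitrate reductase, had 9914, 9963 and 10503 in -N+L and 9372, 12705 and 10057 in -N-L (log2 -0.07, SE 0.20), so the groups overlapped. NRT1.1, the nitrate transporter and sensor, had 3959, 4611 and 5586 in -N+L and 1628, 1855 and 758 in -N-L (log2 1.83, SE 0.62, adjusted p = 0.0813, and 0.016 with the block).

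Heat, oxidative stress and tissue markers were read for the state of the seedlings. HSP17.6A, a small heat shock protein named from the study's table, was dim, with 101, 119 and 35.4 in bzip1-1 -N+L and 14.8, 10.5 and 24.4 in -N-L (log2 2.27, SE 0.66, adjusted p = 0.0361, but 0.135 without -N+L number 1, and lost also without -N+L number 2 or -N-L number 1 or 2). SAPX, an ascorbate peroxidase of the chloroplast stroma, was the only one of 3 counted oxidative stress genes to pass, against 8.25% of all probe sets. SAPX read 1499, 1261 and 1779 in -N+L and 907, 1080 and 989 in -N-L (log2 0.60, SE 0.16, adjusted p = 0.0209). That call was lost without -N+L number 1 (0.0635), -N+L number 3, -N-L number 1 or -N-L number 3. Of the root markers 2 could be measured, EXPA7 and EXPA18, expansins of root hairs, whose summed signal was 238 to 317 in -N+L and 158 to 207 in -N-L. The 5 measured leaf, stomatal and trichome markers summed to 751 to 1063 in -N+L and 776 to 1095 in -N-L, with MUTE, which sets the last stomatal divisions, near the floor in the dark at 4.11, 9.85 and 6.07. None of these 7 markers passed, against 8.25% of all probe sets, and their part in the light response was not tested.

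Without nitrogen the light response of WT-sib could be set beside that of bzip1-1, with no arrays shared. In WT-sib 1388 probe sets were called (6.1%). They shared 502 higher probe sets with bzip1-1, 55.0% of the bzip1-1 calls and 76.5% of those of WT-sib, and 620 lower ones, 64.3% and 84.7%. None was called opposite ways. The probe sets called in bzip1-1 had a median change in WT-sib of 1.03 where higher and -1.03 where lower, with the sign of bzip1-1 in 906 of 913 and 960 of 964. Equal signs were not counted over all probe sets, so these counts have no background beside them. Medians in bzip1-1 are of probe sets chosen for their size in bzip1-1, which places them further from 0. The changes of the 2 genotypes correlated with r = 0.61 over all probe sets and with r = 0.91 over those above the dim level, a description across probe sets that share the array type and scaling.

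The difference between the genotypes was tested itself. No probe set passed (0% of 22746 by limma, smallest adjusted p = 1.0), with 354 at an unadjusted p under 0.05, and none passed with the replicate block, by the analysis of variance on linear signal or by the linear model without moderation. Without the -N+L arrays of number 1 of both genotypes and with the block, 1 passed, BT2, in which these arrays lie on the side of the other genotype. The interval of the difference was wide: the median half-width of its 95% interval over the 1877 probe sets was 0.81 on the log2 scale, and in 827 of them it lay within 1 of 0. In the others the interval reached past a log2 difference of 1 in at least 1 direction, and 3 arrays a group did not bound it more closely.

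Among the genes described above, the intervals differed in width. For BT2 the difference of bzip1-1 minus WT-sib was -1.11 (95% interval -3.46 to 1.24), with WT-sib at 12.2, 85.4 and 91.9 in -N+L and 7106, 4644 and 9298 in -N-L. It was -2.41 (-4.17 to -0.66, adjusted p = 1.0) without the array labelled bzip1-1 -N+L number 1, -2.07 without WT-sib -N+L number 1 and -3.37 (-4.56 to -2.18, adjusted p = 0.273) without both, and this last difference passed with the block (adjusted p = 0.0213). In BT2 the 2 arrays numbered 1 lie on the side of the other genotype. Leaving both out therefore widens the difference by construction, and the pass with the block is no evidence of one. The fit without both was chosen after seeing the data. The BT2 difference was -0.15 without bzip1-1 -N+L number 2, so single light arrays moved it widely. For AT5G19120 it was -0.25 (-1.25 to 0.75) and close to 0 without WT-sib -N-L number 2 or WT-sib -N+L number 3, with WT-sib at 296, 291 and 495 in -N+L and 9743, 6067 and 11283 in -N-L. For UGT78D1 it was 1.06 (0.27 to 1.85, unadjusted p = 0.0113, adjusted p = 1.0), with WT-sib at 1130, 1615 and 1644 in -N+L and 163, 234 and 213 in -N-L, so the dark arrays were higher in WT-sib. Without both -N+L arrays of number 1 it was 0.89 (-0.01 to 1.78). The smallest p among named, not dim probe sets belonged to NACA3, whose protein belongs to a complex that meets new peptides at the ribosome. NACA3 read 1638, 1902 and 1890 in bzip1-1 -N+L and 1411, 1225 and 1063 in bzip1-1 -N-L, against 1343, 1823 and 1513 in WT-sib -N+L and 1842, 1729 and 1674 in WT-sib -N-L (difference 0.73, SE 0.19, unadjusted p = 0.00102, adjusted p = 1.0). AT1G62150, AT5G60730, THO1 and AT4G27050 followed, with differences of -0.82, -0.93, -0.85 and -0.84.

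**Figure D4:**
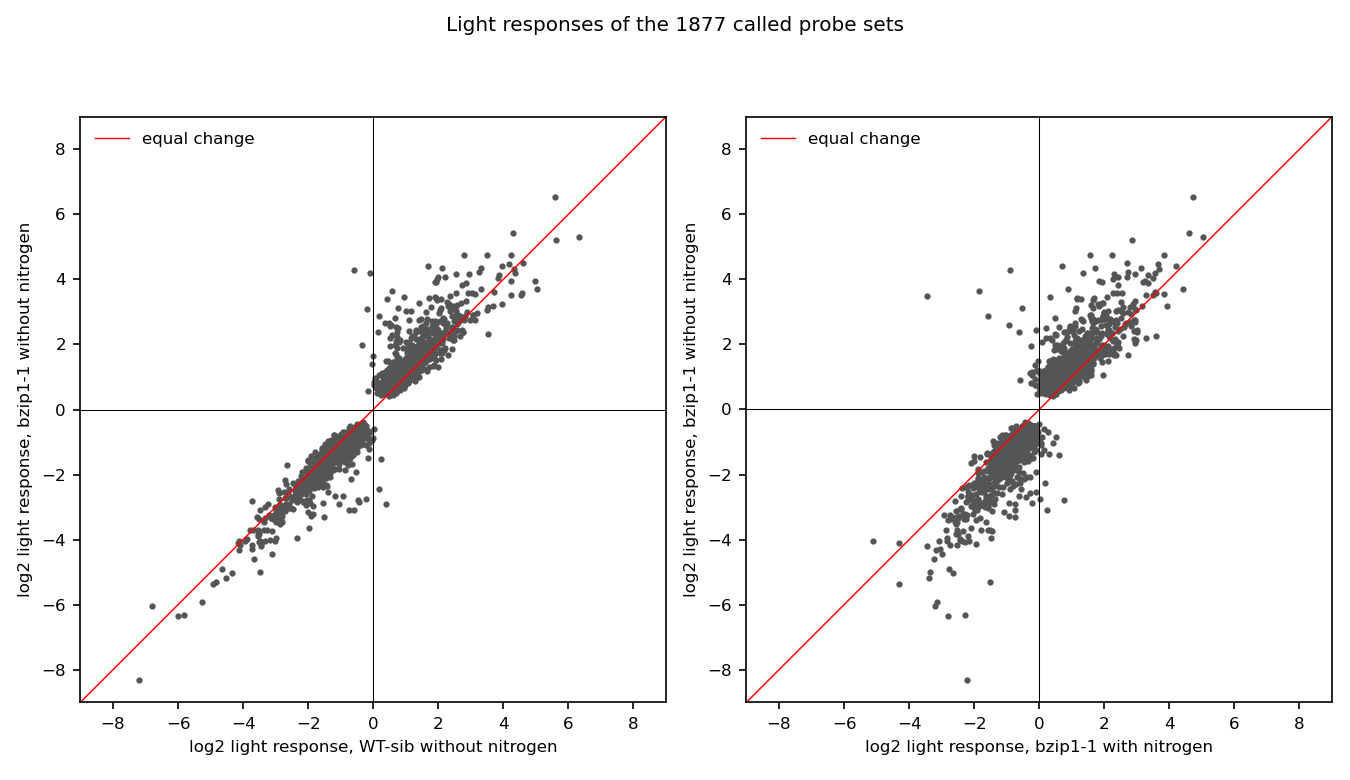
Log2 light response of the 1877 called probe sets in bzip1-1 without nitrogen (y axis of both panels) against the log2 light response of WT-sib without nitrogen (left, x axis) and of bzip1-1 with nitrogen (right, x axis), each from 3 light and 3 dark arrays. The red line marks equal change. The points were chosen for their size on the y axis, and their medians on the x axis are 1.03 and -1.03 in WT-sib and 0.88 and -0.80 with nitrogen.

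With nitrogen supplied, 845 probe sets were called in bzip1-1 (3.71%). They shared 322 higher probe sets with the response without nitrogen, 35.3% of the calls without nitrogen and 75.1% of those with it, and 362 lower ones, 37.6% and 87.0%. None was called opposite ways. Probe sets called without nitrogen had a median change with nitrogen of 0.88 where higher and -0.80 where lower. Of the 12 lowest genes 9 were also called with nitrogen, and of the 12 highest 7. Of the dark-inducible and branched-chain genes described above, ASN1 changed by -3.83 without nitrogen and -2.48 with it, MCCA by -3.25 and -2.74, and AKINBETA1 by -3.47 and -2.52. None of these 3 differences passed. List medians went both ways. That of the 2 counted dark-inducible genes was -1.77 without nitrogen and -1.41 with it. For the 6 counted amino acid breakdown genes it was -1.60 and -1.65, and for the 10 counted autophagy genes -0.21 and -0.66.

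The difference between the 2 nitrogen settings passed for 1 probe set (0.0044%), with 779 at an unadjusted p under 0.05. It was UGT73B1, a UDP-glucosyltransferase annotated as acting on abscisic acid. UGT73B1 read 334, 424 and 311 in bzip1-1 -N+L and 1515, 2098 and 1510 in -N-L, a log2 change of -2.26 (SE 0.23, adjusted p = 3.23e-06). With nitrogen it read 1391, 1334 and 1067 in bzip1-1 +N+L and 831, 1028 and 1578 in +N-L, a log2 difference of 0.19 (adjusted p = 0.804). The response without nitrogen minus that with nitrogen was -2.44 (SE 0.33, 95% interval -3.14 to -1.75, adjusted p = 0.00939). Only the -N+L arrays were low, in bzip1-1 as in WT-sib, which read 460, 335 and 365 in -N+L and 1157, 1063 and 1139 in -N-L. Without the array labelled -N+L number 1 the adjusted p was 0.0253. It rose above 0.05 without -N-L number 2 (0.0585), +N-L number 2 (0.0537), +N+L number 1 (0.0563) or +N+L number 2 (0.0536). The call was also lost in the fit of only the 12 bzip1-1 arrays (adjusted p = 0.107), with numbers 2 and 3 alone (0.492), by the analysis of variance on linear signal (0.6) and by the linear model without moderation (0.0561).

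BT2 had the next pattern of interest, named by its small p. In bzip1-1 +N+L it read 2054, 1984 and 3000, and in +N-L 9176, 10794 and 12191, a log2 difference of -2.21 (adjusted p = 0.148), against the change of -8.32 without nitrogen. The difference of -6.11 (SE 1.13) had an adjusted p of 0.145 with all arrays, of 0.0688 with the block and of 0.000798 without the array labelled -N+L number 1, whose signal of 153 was the highest of the 3. On linear signal the difference turned positive, at 351 signal units (adjusted p = 1.0). AT1G68670, annotated as a myb family transcription factor, read 392, 360 and 329 in bzip1-1 -N+L and 1768, 1472 and 1320 in -N-L, against 1301, 1336 and 1213 in +N+L and 1456, 1491 and 1754 in +N-L (difference -1.79, SE 0.29, adjusted p = 0.0583, and 0.0258 with the block). Only its -N+L arrays were low. AT1G25550, annotated the same way, had a difference of -1.38 (SE 0.30, adjusted p = 0.544), and AT3G19030, annotated as an unknown protein, of -1.66 (SE 0.37, adjusted p = 0.545).

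With the block 5 probe sets passed, all with a lower response without nitrogen. Besides UGT73B1, AT1G68670 and a probe set with no gene name they were SERAT2;1 and AT1G49500, named after their values were seen. SERAT2;1, a serine acetyltransferase of cysteine synthesis, read 3604, 2472 and 2215 in bzip1-1 -N+L and 2228, 1949 and 1372 in -N-L, against 10868, 8964 and 7230 in +N+L and 2993, 2254 and 1464 in +N-L (difference -1.48, SE 0.42, adjusted p = 0.945, and 0.0171 with the block). It was high only where light and nitrogen came together. AT1G49500, an unknown protein, read 423, 403 and 607 in -N+L and 5291, 6841 and 6262 in -N-L, against 2864, 2164 and 4219 in +N+L and 6887, 7301 and 11824 in +N-L (difference -2.20, SE 0.53, adjusted p = 0.545, and 0.0476 with the block).

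**Figure D5:**
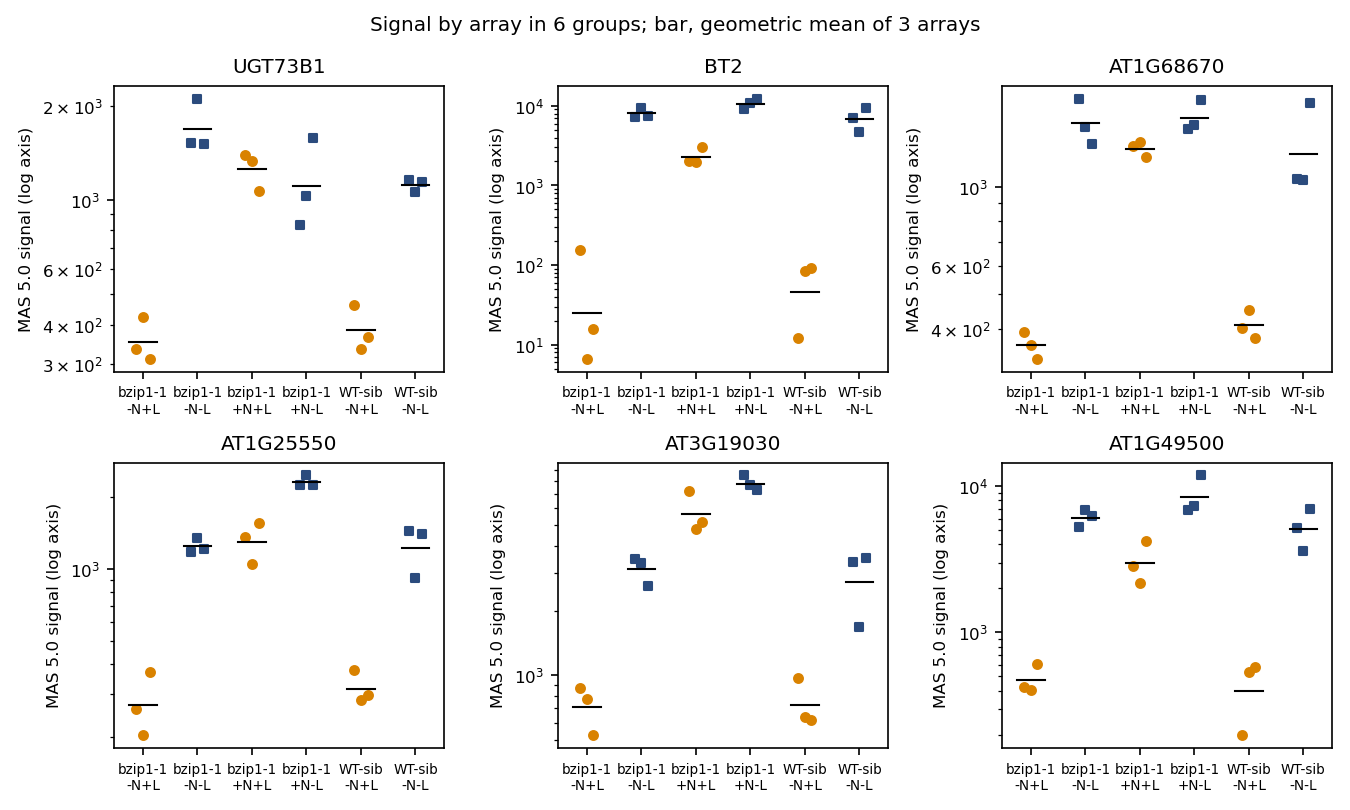
MAS 5.0 signal (log axis) of 6 genes by array in bzip1-1 without nitrogen, bzip1-1 with nitrogen and WT-sib without nitrogen, 3 arrays in each of the 6 groups. Orange circles are +L arrays, blue squares -L arrays and black bars the geometric mean of 3 arrays. In all 6 genes the lowest signals are those of -N+L, in bzip1-1 and in WT-sib. Genes were picked for a small p in the nitrogen difference of bzip1-1 or, for AT1G49500, after its values were seen. Their shared pattern in bzip1-1 therefore largely follows from the choice. SERAT2;1, which had another pattern, is not shown.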

How the data were processed

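RNA of whole seedlings was hybridised to 24 ATH1 arrays, and the authors deposited one signal intensity per probe set and array, computed by MAS 5.0 on a linear scale. The deposited intensities had a 2% trimmed mean of about 496 on every array. The number of arrays limits the precision. The 64 control probe sets were left out, and 22746 were tested. limma 3.58.1 in R 4.3.3 was fitted to log2 signal with a mean for each of the 8 groups over all 24 arrays (lmFit, eBayes with a trend), two-sided, with Benjamini-Hochberg adjustment across every probe set tested. The light response was -N+L minus -N-L in bzip1-1, and the 2 differences were that response minus the one of WT-sib and minus the one with nitrogen. In simulated data of 22746 probe sets, 100 above the dim level were changed by each of 1, -1, 2 and -2. The fit of this contrast recovered 46, 49, 96 and 89 of them, with 17 false calls among the unchanged probe sets. The simulated noise was normal and independent between arrays, with no shared experiment and no deviating array. These numbers therefore do not measure error or power on the real arrays.

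A probe set was named where the platform's table gives it 1 gene with a locus (13436 probe sets). A further 873 were named only by the study's table of genes regulated on these arrays, 503 with several genes and 7857 without a name were left unnamed. Each probe set was kept on its own. Named genes are the 12 highest and 12 lowest changes among called probe sets with 1 named locus, above the 40th percentile of mean signal and with groups that do not overlap, list members, and for each difference the called genes or the 5 smallest p above that percentile. Members, lists and this rule were chosen with earlier results of these data known. Genes outside the rule are marked as named after their values were seen.

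The replicate numbers pair the arrays: deviations from the group means of bzip1-1 -N+L and -N-L arrays of the same number correlated with r = 0.25, 0.12 and 0.29 over probe sets, those of bzip1-1 and WT-sib with 0.31, 0.16 and 0.25 in -N+L and 0.22, -0.03 and 0.22 in -N-L, and the study describes 3 independent experiments. Alternatives were the block, fewer arrays in the fit, other scalings, 32 added before log2, a filter on dim probe sets, no trend, the methods' analysis of variance on linear signal, a linear model without moderation, and each array left out. Of these, the fits of only the arrays without nitrogen, of all arrays but both -N+L arrays of number 1, and of only numbers 2 and 3 were chosen after seeing the data. Promoter words were planned but no sequence was at hand, so they were not analysed here. The authors' own comparisons were used for gene names only.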

Additional observations from a re-analysis of the deposited data

Results flagged for a closer look

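The light response of UGT73B1 without nitrogen minus its response with nitrogen in bzip1-1 was -2.44 on the log2 scale, and it was the only probe set for which a test of the difference between the 2 nitrogen settings passed (adjusted p = 0.00939 by limma). Its signal lay between 311 and 424 on the 3 bzip1-1 -N+L arrays, below the 9 arrays of the other 3 bzip1-1 groups, and the difference kept its sign under every alternative tried (-2.70 to -2.20 on the log2 scale). The call was lost with only the 12 bzip1-1 arrays (adjusted p = 0.107), where AT1G68670 passed instead (0.0415), with numbers 2 and 3 alone (0.492), where BT2 passed (0.00514), by the analysis of variance on linear signal (0.6), by the linear model without moderation (0.0561), and without any of 4 single arrays (0.0536 to 0.0585). The cause was not tested.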

How the results depend on the processing

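The count of probe sets with a light response in bzip1-1 without nitrogen was 1877. With the replicate number as a block it was 3234, with the block and without the -N+L arrays of number 1 it was 2854, and with numbers 2 and 3 alone it was 842. Leaving out 1 array gave 1145 to 1573. Every other alternative gave counts within 1.5 times of 1877, and no called probe set changed sign. Over the difference from WT-sib the count was 0 under every alternative except the block without the -N+L arrays of number 1, which gave 1 (BT2). Over the difference from the response with nitrogen the count was 1 in the fit of all arrays, 5 with the block, 14 with the block and without the -N+L arrays of number 1, 2 without both of those arrays, 2 with the offset, 3 with dim probe sets left out, 0 by the analysis of variance on linear signal, 0 by the linear model without moderation, and 0 to 4 with 1 array left out. The difference of UGT73B1 ranged from -2.70 to -2.20 on the log2 scale. On linear signal the differences of BT2 and AT1G25550 with nitrogen turned positive, at 351 and 17.8 signal units, the difference of AT5G19120 from WT-sib ran from -0.43 to 0.014 with 1 array left out, positive without WT-sib -N-L number 2 (0.014) and WT-sib -N+L number 3 (0.003), and the light response of NIA2 ran from -0.16 to 0.06 on the log2 scale with 1 array left out, positive without -N-L number 2 alone. Turning from a ratio to a difference of linear signals is what the linear alternative does, and the cause of the other changes was not tested. Of 103 genes with a light response tried, 51 kept their side of the threshold under every alternative. The block took away none of their calls and added 13, of which those not given above were HAT2 (adjusted p = 0.0261), CDF1 (0.0429), AT1G76570 (0.0377), GSTF9 (0.0204) and SERAT2;1 (0.0136). The block made no call in the difference from WT-sib. Probe sets under a signal of 123 vary most, and changes that reach them depend on the offset. The promoter words were not run.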

Other observations

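The lists in this part were put together after their values were seen, so their counts describe these arrays and support nothing. Genes of glucosinolate synthesis and transport, which make and move the sulfur-rich defence compounds of the mustard family, stood higher in bzip1-1 -N+L than in -N-L. Of 6 genes named by the platform 3 rose and none fell, against 4.01% of all probe sets called higher, with a median log2 difference of 1.67 against 0.05 over all probe sets. GTR1, a glucosinolate importer, read 1488, 1133 and 997 in -N+L and 296, 292 and 220 in -N-L (log2 2.15, SE 0.33, adjusted p = 0.0002). AOP1, of the side-chain modifying family, read 272, 420 and 284 in -N+L and 120, 81.4 and 19.2 in -N-L (log2 2.48, SE 0.47, adjusted p = 0.00161). UGT74B1, which adds the glucose, rose by 1.39 (adjusted p = 0.00713, but 0.0579 without -N-L number 2). Named from the study's table, SOT18, the sulfotransferase of the last step, read 2127, 1532 and 1191 in -N+L and 376, 384 and 340 in -N-L (log2 2.1, SE 0.26, adjusted p = 2.24e-05), and GSTF11, a glutathione transferase, rose by 1.92 (SE 0.30). BCAT4, which starts the chain elongation of methionine, had 2230, 523 and 522 in -N+L and 340, 256 and 122 in -N-L (log2 1.95, adjusted p = 0.17, and 0.00164 with the block), with the array labelled -N+L number 1 far above the other light arrays.

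Sulfate assimilation supplies these compounds. None of its 3 platform-named genes passed, against 8.25% of all probe sets, and their median log2 difference was 0.23. Of its 4 members named only through the study's own regulated genes, 2 were called higher, against 4.01% of all probe sets. Without the array labelled -N+L number 1 only 1 of the 4 was called. Those members were named from calls on these same arrays, so their number is no evidence about the list. APR2, the reductase that commits sulfate to cysteine, read 5907, 5937 and 2812 in bzip1-1 -N+L and 924, 825 and 1316 in -N-L (log2 2.21, SE 0.51, adjusted p = 0.00796). SERAT2;2, a serine acetyltransferase, read 3659, 2920 and 2604 in -N+L and 1950, 1604 and 1501 in -N-L (log2 0.86, SE 0.25, adjusted p = 0.0393), a call lost without -N+L number 1 (0.174), -N+L number 2, -N-L number 2 or -N-L number 3. Fat breakdown went the other way in SDP1, the lipase that starts the use of seed and leaf oil, with 305, 262 and 573 in -N+L and 1811, 2010 and 3002 in -N-L (log2 -2.63, SE 0.41, adjusted p = 0.000254). SDP1 was the only one of 3 platform-named genes to pass, against 8.25% of all probe sets. AT5G61590 (DEWAX), an AP2 domain factor known to hold back wax synthesis in the dark, read 402, 417 and 892 in -N+L and 5267, 5843 and 2853 in -N-L (log2 -3.07, SE 0.47, adjusted p = 0.000254).

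UGT73B1, UGT78D1, UGT78D2 and UGT74B1 belong to a large family of glycosyltransferases, of which the platform names 48 probe sets. In bzip1-1 -N+L 7 of them were higher and 3 lower than in -N-L, against 4.01% and 4.24% of all probe sets, with a median log2 difference of 0.04.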
